A study of Mus musculus with 9 samples.

Results

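Histones are the proteins around which DNA is wound, and their genes were examined in SVR cells, a mouse endothelial line that forms angiosarcomas, before and after propranolol, a blocker of beta-adrenergic receptors. A probe of the array was taken as a histone probe if its current or former gene symbol placed it in the histone families H1, H2A, H2B, H3 or H4. This rule found 77 probes for 69 genes among 25697 probes for 16593 named genes. Of these, 57 probes (52 genes) were for replication-dependent histones, 9 probes (7 genes) for variant histones, and 11 probes (10 genes) for histones of germ cells.

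There were 3 arrays of sham-treated SVR cells, labelled 0 h, 3 arrays of cells given 50 µM propranolol for 4 h and 3 arrays of cells given 50 µM propranolol for 24 h. SVR is 1 line, derived from mouse islet endothelium that carries a viral large T antigen and oncogenic Ras, and all 9 arrays share that background. The methods of the study give a higher dose and a 24 h sham and do not describe the 4 h arrays, so the dose and the sham time stay uncertain and sham differs from 24 h in time in culture as well if the labels hold. RNA was pooled over 3 biological replicates and arrays were run in triplicate, so p-values reflect array-to-array spread that may be technical.

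Replication-dependent histones lie in clusters of many near-identical copies, are transcribed mainly in S phase to package new DNA, and normally give messenger RNAs that end in a stem-loop and have no poly(A) tail. Variant histones come mostly from single genes whose messenger RNAs have poly(A) tails. Many but not all of these genes have introns, and many are expressed throughout the cell cycle. Some variants are placed at particular sites, such as H2A.Z at promoters and H3.3 at active genes, and H2A.X is phosphorylated beside DNA breaks. The labelling kit primes from poly(A), so a change in the amount of a replication-dependent transcript and a change in the share of it that carries a tail cannot be told apart. Fewer cells in S phase and less RNA per cell cannot be told apart either. Probes for near-identical copies may read each other's transcripts, which could not be checked, and every single-gene value below for these families carries that uncertainty.

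The signal of a probe is the mean brightness of its beads, in intensity units. Mean signal over all probes was 306.5 to 387.7 per array, and 11454 to 12245 probes were detected above negative controls. Testing required detection on all 3 arrays of 1 or more groups, and 11653 probes met this. Among the histone probes 51 passed: 42 of 57 replication-dependent, 9 of 9 variant and 0 of 11 germ cell probes. A probe was called when limma gave an adjusted p under 0.05 and a change of at least 1.5-fold, and all log2 fold changes are on a background-corrected, quantile-normalized scale with an offset of 16. Of 12 endothelial markers, 10 were detected on all sham arrays, whereas Kdr and Erg were not.

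The 250 bases before the transcription start are printed for 7 histone genes that carry the results below. They show the 2 pairs that start back to back and whose members differed most (H2ac11 with H2bc11, and H2ac7 with H2bc7), the H2A gene that fell most (H2ac21), the H1 gene that rose (H1f2), 1 H3 and 1 H4 gene, and a variant (H2aj). Capitals mark matches on either strand. The letters marked are CCAAT, bound by the factor NF-Y, then the TATA box in the form TATAAA, and TTTCGCGC, a sequence of the kind that E2F factors bind. ATTTGCAT and TTTGGCGC were searched too and had no match in these windows. No match overlaps another in these windows, and the H4c11 window holds none. The sequences are from RefSeq on GRCm38.p6.
H2ac21 (chr3:96219635-96219884, + strand): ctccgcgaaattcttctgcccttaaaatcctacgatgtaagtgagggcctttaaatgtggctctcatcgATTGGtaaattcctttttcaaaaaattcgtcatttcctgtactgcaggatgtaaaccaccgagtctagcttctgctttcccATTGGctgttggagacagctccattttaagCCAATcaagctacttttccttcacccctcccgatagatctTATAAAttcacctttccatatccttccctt
H2ac11 (chr13:22042950-22043199, - strand): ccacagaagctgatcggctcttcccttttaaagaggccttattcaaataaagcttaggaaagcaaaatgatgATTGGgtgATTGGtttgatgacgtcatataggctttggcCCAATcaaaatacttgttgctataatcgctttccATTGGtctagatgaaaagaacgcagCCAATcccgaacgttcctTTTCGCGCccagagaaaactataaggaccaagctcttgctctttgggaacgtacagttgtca
H2bc7 (chr13:23574208-23574457, - strand): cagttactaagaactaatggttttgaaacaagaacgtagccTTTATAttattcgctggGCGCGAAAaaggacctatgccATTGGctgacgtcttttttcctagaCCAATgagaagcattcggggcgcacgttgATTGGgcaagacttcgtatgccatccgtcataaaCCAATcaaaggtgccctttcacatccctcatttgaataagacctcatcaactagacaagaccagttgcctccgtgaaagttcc
H1f2 (chr13:23738557-23738806, + strand): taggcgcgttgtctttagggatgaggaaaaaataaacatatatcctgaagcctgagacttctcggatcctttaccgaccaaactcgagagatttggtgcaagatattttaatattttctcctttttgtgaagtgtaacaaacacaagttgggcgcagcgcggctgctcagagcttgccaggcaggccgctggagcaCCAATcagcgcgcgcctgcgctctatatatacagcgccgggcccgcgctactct
H3c10 (chr13:21717378-21717627, + strand): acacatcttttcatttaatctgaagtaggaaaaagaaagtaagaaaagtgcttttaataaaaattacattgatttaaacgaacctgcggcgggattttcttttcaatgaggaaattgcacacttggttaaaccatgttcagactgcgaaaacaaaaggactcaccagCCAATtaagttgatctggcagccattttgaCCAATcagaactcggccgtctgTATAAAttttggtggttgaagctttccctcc
H4c11 (chr13:21734784-21735033, + strand): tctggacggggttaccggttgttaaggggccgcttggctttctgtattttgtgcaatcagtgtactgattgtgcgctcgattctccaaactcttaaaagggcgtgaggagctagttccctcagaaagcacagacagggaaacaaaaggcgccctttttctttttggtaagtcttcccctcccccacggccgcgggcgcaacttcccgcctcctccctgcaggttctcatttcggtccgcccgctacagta
H2aj (chr6:136807998-136808247, + strand): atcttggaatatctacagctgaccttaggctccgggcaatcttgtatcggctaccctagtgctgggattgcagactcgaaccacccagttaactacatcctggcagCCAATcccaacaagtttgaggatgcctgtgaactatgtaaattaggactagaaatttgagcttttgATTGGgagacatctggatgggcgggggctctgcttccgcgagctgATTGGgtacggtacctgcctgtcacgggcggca

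The H2ac11 window read on the other strand is, apart from 2 bases at its end, the window before H2bc11, because the starts of H2ac11 and H2bc11 lie 249 bases apart on opposite strands. Promoter sequence was available for 63 of the 69 genes. CCAAT was in the window of 38 of 47 replication-dependent genes (80.9%), against 34.5% of 27025 mouse promoters of the same length. It was in all 14 H2A, 11 H2B and 5 H1 windows but in 2 of 10 H4 windows. TTTCGCGC was in 6 of the 47 (12.8%), against 0.255% of all promoters, and the octamer ATTTGCAT in 11 of the 47 (23.4%), against 1.61%, 6 of them H2A and 5 H2B genes. H2ac11 and H2bc11, both among the 6, share 1 TTTCGCGC site. Windows of genes that start back to back overlap, so a CCAAT or octamer match between the starts is also counted for both genes. The octamer is in both windows for H2ac12 with H2bc12 and for H2ac8 with H2bc8. TTTGGCGC, searched as another form of the E2F sequence, was in 0 of the 47, against 0.437% of all promoters. Of the 6 variant genes with sequence, 4 held CCAAT and 0 held TTTCGCGC. A match is a description of letters in the window and says nothing of binding in these cells.

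At 24 h, 19 of the 51 histone probes were called lower than sham and 4 higher, whereas 12.1% of all tested probes were called lower and 12.8% higher. The median log2 change was -0.45 over the histone probes and -0.04 over all tested probes. Replication-dependent and variant histones both lay on the low side: 15 of 42 replication-dependent probes were called lower and 4 higher (median -0.41), and 4 of 9 variant probes were called lower and 0 higher (median -0.54). The difference between the classes was not tested. In 32 of the 51 probes all 24 h arrays were below all sham arrays, where 34.3% of all probes showed this, and in 8 all were above, where 30.5% did. With 3 arrays against 3, the exact permutation test cannot give a p below 0.1 for a single probe.

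The families did not move alike. Replication-dependent H2A had 7 of 11 probes called lower and 1 higher (median -0.78), and H3 had 4 of 9 lower and 1 higher (median -0.51). For H4, 4 of 11 were lower and 0 higher (median -0.49, all 11 values under 0). Of 9 H2B probes 0 were lower and 1 was higher (median 0.18), with 1 lower and 3 higher at an adjusted p under 0.05 without the fold. Of all 11653 tested probes, 3694 were lower and 3297 higher at that threshold. H1 had 2 tested probes, of which 1 was higher. These counts depended on the background step. The 7 lower H2A calls, the lower H2ax call and the higher H1f2 and H2bc4 calls were made in all 5 scalings run, while the H3, H4, H1f10, H2aj and H3f3a calls and the rise of H2ac18 were lost in at least 1 of them.

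**Figure D1:**
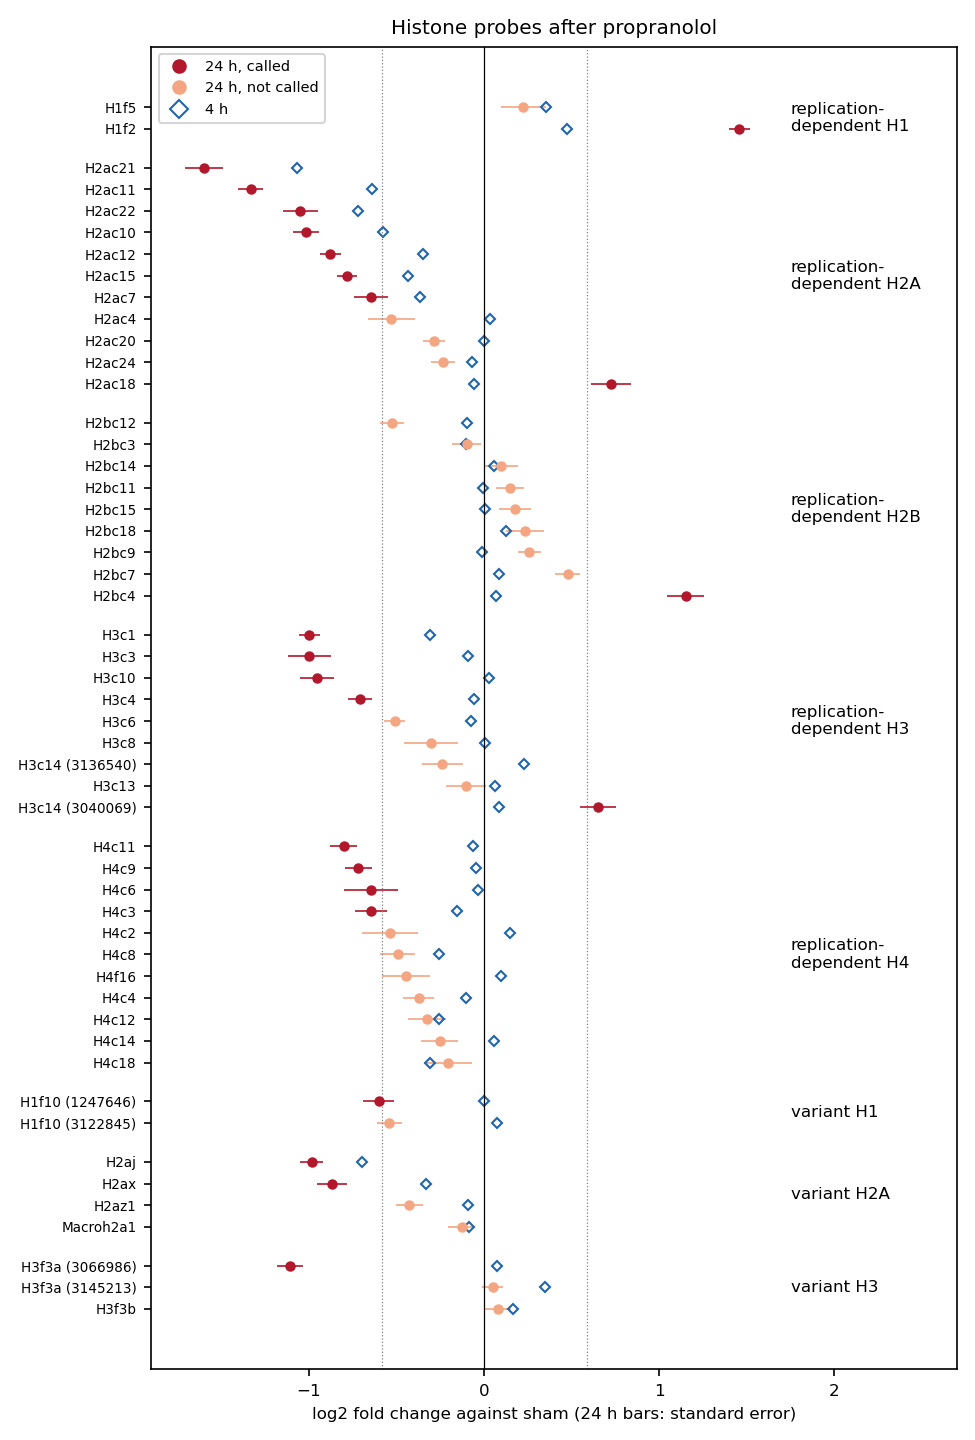
Log2 fold change against sham (horizontal axis) of each of the 51 tested histone probes, grouped by class and family; filled circles are 24 h with the standard error, open diamonds are 4 h, and dotted lines mark 1.5-fold. Most H2A, H3 and H4 circles lie left of 0, most H2B circles lie at or right of 0, and at 4 h the diamonds left of the dotted line are H2ac21, H2ac22, H2aj and H2ac11.

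H2A forms a dimer with H2B that sits on the face of the nucleosome, and its copies carried the 2 largest falls among the histone probes. H2ac21 (formerly Hist2h2ab) gave 769.5, 573 and 598 intensity units in sham, 352, 323 and 318 at 4 h, and 276, 274 and 228 at 24 h. All treated arrays were below all sham arrays, and the 24 h arrays were below the 4 h arrays. Its log2 change was -1.07 ± 0.11 (SE, limma, adjusted p = 0.000114) at 4 h and -1.60 ± 0.11 (adjusted p = 7.44e-07) at 24 h. H2ac21 lies in the small cluster on chromosome 3, and H2ac11, H2ac22, H2ac10, H2ac12, H2ac15 and H2ac7, also lower, lie in the large cluster on chromosome 13.

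H2ac11 (Hist1h2ag) gave 2033, 1489.6 and 2035 units in sham, 1268, 1018 and 1115 at 4 h, and 774, 772 and 618 at 24 h. The groups did not overlap. Its log2 change was -0.64 ± 0.07 at 4 h (limma, adjusted p = 0.000226) and -1.33 ± 0.07 at 24 h (adjusted p = 1.57e-07).

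H2ac22 (Hist1h2an) gave 4038, 3422 and 3425 units in sham, 2362, 1878 and 2221 at 4 h, and 1607, 1746 and 1424 at 24 h. Its log2 change was -0.72 ± 0.10 at 4 h (limma, adjusted p = 0.00077) and -1.05 ± 0.10 at 24 h (adjusted p = 8.5e-06), so most of its fall was already present at 4 h. H2ac10 (Hist1h2af) followed the same course with 8160.4, 7569 and 8478 units in sham, 5431, 5082 and 5047 at 4 h, and 3452, 3747 and 3274 at 24 h. Its log2 value of -0.58 ± 0.08 at 4 h passed the adjusted p (limma, 0.000543) and missed 1.5-fold, and it fell by 1.02 on the log2 scale at 24 h (adjusted p = 1.42e-06). Leaving out sham replicate 1, sham replicate 3 or 4 h replicate 2 moved H2ac10 past 1.5-fold at 4 h (-0.62, -0.60 and -0.61).

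H2ac12 (Hist1h2ah) gave 11937, 9260.5 and 11756 units in sham, 8502, 7639.6 and 8201 at 4 h, and 5143, 5249 and 4453 at 24 h. It fell by 0.88 ± 0.06 on the log2 scale at 24 h (limma, adjusted p = 8.27e-07), and its 24 h arrays lay below all others. H2ac15 (-0.78) and H2ac7 (-0.65) were also called lower, H2ac7 only with the third 24 h array, without which its log2 value was -0.55. That array is the only 1 on a second BeadChip, and within the first BeadChip 17 histone probes were called lower and 4 higher at 24 h.

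The remaining H2A probes were H2ac4 (-0.53), H2ac20 (-0.29) and H2ac24 (-0.23), which were not called, and H2ac18. H2ac4 was called without sham replicate 1 (-0.66) or 24 h replicate 2 (-0.59). H2ac18 (Hist2h2aa1) was dim, with 107, 90.0 and 97.5 units in sham, 97.7, 92.7 and 96.5 at 4 h, and 115, 122 and 104 at 24 h. Its log2 rise of 0.72 ± 0.11 at 24 h (limma, adjusted p = 0.00029) was 0.20 without background correction and was not called there. It was detected on 2 sham arrays, 0 of the 4 h arrays and all 3 of the 24 h arrays, so it entered the test through the group where it was high. With detection required in both groups compared, it was not tested. Its 24 h level was at least 1.65-fold the lowest detected signal on the 4 h arrays.

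TTTCGCGC was found before 3 of the 7 lower H2A genes (H2ac10, H2ac11 and H2ac22) and before 0 of the other 4 tested H2A genes, and the octamer before 1 of the 7 and 2 of the 4. This comparison was made after the values were seen, and no test was run on it.

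**Figure D2:**
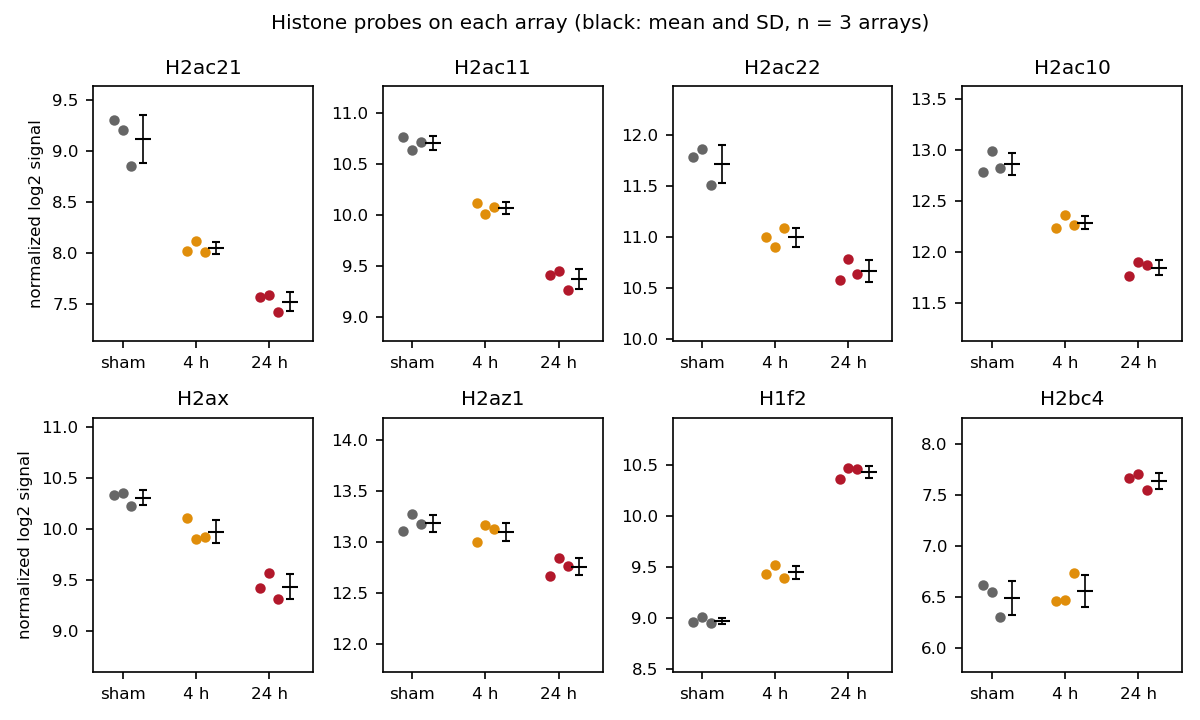
Normalized log2 signal (vertical axis, each panel spanning the same range of log2 units) on every array for 8 histone probes, with the mean and SD over 3 arrays in black. The 4 H2A panels step down from sham to 4 h to 24 h, H2ax steps down less at 4 h, H2az1 is lower mainly at 24 h, and H1f2 and H2bc4 are higher at 24 h.

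H2B is the partner of H2A in the dimer. H2bc4 (Hist1h2bc) was the 1 H2B probe called higher, with 182, 145 and 161 units in sham, 168, 149.6 and 172 at 4 h, and 290.1, 291 and 244 at 24 h. The sham and 4 h arrays overlapped and the 24 h arrays were above both. Its log2 change was 1.15 ± 0.10 at 24 h (limma, adjusted p = 5.77e-06) and 0.07 ± 0.10 at 4 h (adjusted p = 0.686). A second probe for H2bc4 did not pass detection. Of the other H2B probes, H2bc7 (0.48) and H2bc9 (0.26) passed the adjusted p and missed the fold, as did H2bc12 on the low side (-0.53). The values of H2bc18 (0.23), H2bc15 (0.18), H2bc11 (0.15), H2bc14 (0.10) and H2bc3 (-0.10) did not pass. H2bc18 was below detection on all sham arrays, and its 24 h level was at least 1.1-fold the detection floor there.

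Some H2A and H2B genes start back to back and share the stretch of DNA between them. There were 6 such pairs with starts within 500 bases in the promoter table, and 4 of them had both members tested. In all 4 pairs the difference between the H2A and the H2B signal was lower on every 24 h array than on every sham array. The H2A change minus the H2B change was -1.48 ± 0.09 (SE, n = 3 arrays a group) for H2ac11 and H2bc11, -1.13 ± 0.13 for H2ac7 and H2bc7, -0.96 ± 0.12 for H2ac15 and H2bc15, and -0.35 ± 0.09 for H2ac12 and H2bc12 in log2 units. The exact two-sided permutation p was 0.1 for each, the smallest that 3 arrays against 3 can give. At 4 h the same differences were -0.63, -0.45, -0.45 and -0.25, again with no overlap between arrays and an exact permutation p of 0.1 each. Over the 5 scalings the 24 h difference ran from -0.35 to -0.76 for H2ac12 and H2bc12 and from -1.35 to -1.54 for H2ac11 and H2bc11.

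For H2bc11 the arrays gave 556, 480.3 and 580.1 units in sham, 595, 500.1 and 467 at 4 h, and 570.2, 626 and 509.5 at 24 h. These raw values overlapped, whereas on the normalized scale the 24 h arrays were above sham by a log2 value of 0.15 that did not pass the adjusted p (limma, 0.134). For H2bc7 the values were 715, 576 and 769 in sham, 745, 710.5 and 639 at 4 h, and 936, 897 and 786 at 24 h, while H2ac7 gave 13974, 11264 and 13564 in sham, 11411, 9283 and 10405 at 4 h, and 7629, 8277 and 5924 at 24 h. At 24 h the raw values of this pair thus lay apart from sham in opposite directions. The starts of this pair lie 174 bases apart, so the H2bc7 window printed above runs past the start of H2ac7. Over its whole length it holds 4 CCAAT matches, 1 TATAAA match and 1 TTTCGCGC match. The window before H2ac7, which also covers the stretch between the starts, holds 4 CCAAT, 0 TATAAA and 0 TTTCGCGC matches.

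**Figure D3:**
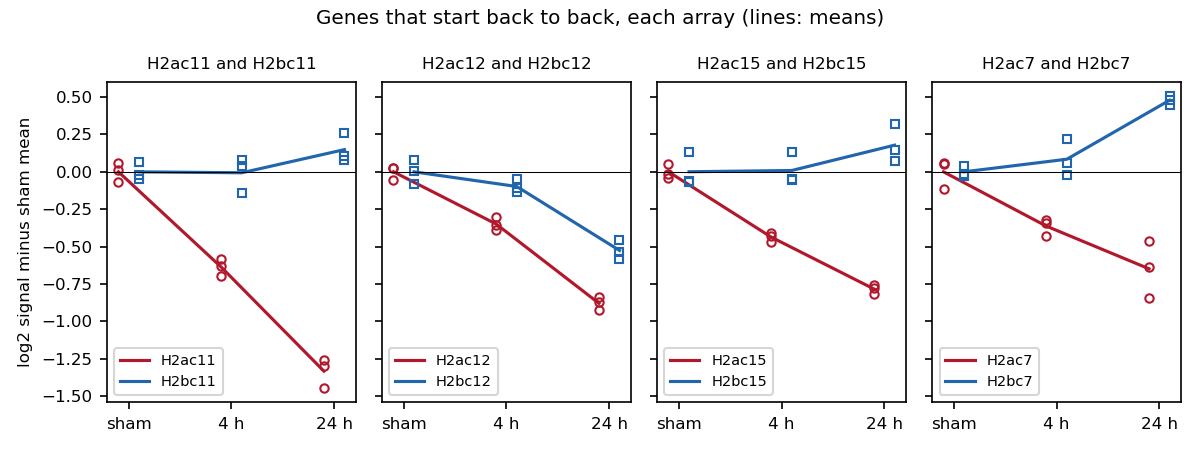
Log2 signal minus the sham mean (vertical axis) on each array for 4 pairs of genes that start back to back; circles and squares are single arrays and lines join group means. The H2A lines fall at 4 h and again at 24 h in every pair, while the H2B lines are at or above 0 at 24 h in 3 pairs and at -0.53 for H2bc12.

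H3 and H4 form the core tetramer of the nucleosome. The lower H3 probes were H3c1 (-0.998), H3c3 (-0.997), H3c10 (-0.96) and H3c4 (-0.71). H3c1 (Hist1h3a) gave 322, 265 and 336 units in sham, 280.5, 232 and 252 at 4 h, and 199.6, 203 and 176 at 24 h. Its 24 h arrays were below all others, and its log2 change was -0.998 ± 0.061 (limma, adjusted p = 3.89e-07), against -0.65 without background correction and -0.52 in the table scaled by the authors.

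H3c3 (Hist1h3c) and H3c10 (Hist1h3h) were dim probes whose log2 changes depended on the background step. H3c3 gave 135, 124 and 150.3 units in sham, 138, 124 and 131 at 4 h, and 101, 112 and 97.9 at 24 h (limma, adjusted p = 5.41e-05). H3c10 gave 133, 102 and 125 units in sham, 122, 114 and 118 at 4 h, and 97.9, 95.3 and 88.1 at 24 h (adjusted p = 1.34e-05). Both had all 24 h arrays below all sham arrays. H3c10 was detected on 1 of the 3 arrays at 24 h, so it entered the test through the sham and 4 h groups, where it was high, and it was not tested with detection required in both groups compared. Without background correction their log2 values were -0.34 and -0.27, which were not called.

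H3c6 (-0.51), H3c8 (-0.30) and H3c13 (-0.10) were not called. H3c14 had 2 probes that disagreed. Probe ILMN_3040069 gave 142, 109 and 145 units in sham, 139, 127 and 130.5 at 4 h, and 167, 181 and 151 at 24 h, and was called higher (log2 0.65 ± 0.10, limma, adjusted p = 0.000312). Probe ILMN_3136540 gave 1233, 756 and 921 in sham, 1179.6, 961 and 1012 at 4 h, and 846, 712 and 736 at 24 h, with a log2 value of -0.24 ± 0.12 that was not called. The higher call was lost without sham replicate 2 (0.54), without 24 h replicate 2 (0.58) and without background correction (0.29).

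Among H4 genes, which code for the same protein from many copies, H4c11 (-0.80), H4c9 (-0.72), H4c6 (-0.65) and H4c3 (-0.65) were called lower at 24 h. H4c11 (Hist1h4j) gave 437, 347 and 417 units in sham, 396, 353 and 372 at 4 h, and 258, 288 and 236 at 24 h, so sham and 4 h overlapped and 24 h lay below both. Not called were H4c2 (-0.54), H4c8 (-0.49), H4f16 (-0.45), H4c4 (-0.37), H4c12 (-0.32), H4c14 (-0.25) and H4c18 (-0.21). All 11 H4 values were below 0, a direction kept by 9 of the 11 in every scaling.

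Several H4 calls changed when 1 array was left out. H4c6 was no longer called without sham replicate 1 (-0.57) or 24 h replicate 2 (-0.46), nor H4c3 without 24 h replicate 3 (-0.57), whereas H4c2 was called without 24 h replicate 1 (-0.69). With the table scaled by the authors 0 of the H4 probes were called and their median was -0.07, and without background correction 1 was called and the median was -0.16. H4f16 was not detected on any 24 h array, and sham was at least 1.22-fold brighter than the lowest detected signal there.

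H1 is the linker histone that closes the nucleosome's entry and exit site. H1f2 (Hist1h1c, histone H1.2) had the largest rise among the tested histone probes, with 624, 512 and 636 units in sham, 822, 747 and 722 at 4 h, and 1398, 1453 and 1292 at 24 h. The 3 groups did not overlap. Its log2 change was 0.47 ± 0.06 at 4 h (limma, adjusted p = 0.000577, under 1.5-fold) and 1.46 ± 0.06 at 24 h (adjusted p = 3.32e-08), a 2.75-fold rise on the offset scale. Without background correction the 24 h value was 1.31 and still called. The window before H1f2 held 1 CCAAT match and no octamer. H1f5, the other replication-dependent H1 tested, had a log2 value of 0.23 ± 0.13 (adjusted p = 0.154), and H1f1, H1f3 and H1f4 did not pass detection.

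Of the 4 variant H2A probes, 2 were called lower at 24 h. H2ax (H2A.X) gave 1535, 1237 and 1480.3 units in sham, 1259, 957 and 1005 at 4 h, and 781, 823 and 637 at 24 h. Its 24 h arrays were below all others, and its log2 change was -0.87 ± 0.09 (limma, adjusted p = 1.1e-05), called in all 5 scalings. H2ax is counted with the variants although its gene gives both a stem-loop and a poly(A) form of its messenger RNA.

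H2aj (H2afj) gave 208, 163 and 205 units in sham, 149, 138 and 145 at 4 h, and 138, 138 and 125 at 24 h. All treated arrays were below all sham arrays, and the log2 change was -0.70 ± 0.07 at 4 h (limma, adjusted p = 8.42e-05) and -0.98 ± 0.07 at 24 h (adjusted p = 7.33e-07). Without background correction the 24 h value was -0.48 and was not called.

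H2az1 (H2A.Z) gave 10305, 8979.5 and 11079 units in sham, 9281, 9078 and 9340.4 at 4 h, and 6093, 6848 and 5904 at 24 h. Its 24 h arrays lay below all others, but its log2 change of -0.43 ± 0.08 passed the adjusted p (limma, 0.000718) and missed 1.5-fold. With median centring and with the array 75th percentile it was -0.67 and -0.72 and was called. Macroh2a1, which codes for a large H2A with an added domain, had a log2 value of -0.13 ± 0.08 (adjusted p = 0.169).

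H3.3 is coded by H3f3a and H3f3b, and H3f3b and 1 of the 2 H3f3a probes were near 0 at 24 h. H3f3b gave 3219, 2476 and 3266 units in sham, 3269.6, 3240.4 and 3146 at 4 h, and 2815, 2982 and 2633 at 24 h (log2 0.08 ± 0.07, limma, adjusted p = 0.369). The H3f3a probe ILMN_3145213 gave 3395, 2795 and 3735 in sham, 4267, 3816 and 3819.6 at 4 h, and 3174, 3151 and 2680.5 at 24 h (log2 0.05 ± 0.06, adjusted p = 0.488). For both probes the 24 h arrays overlapped sham, and the signs of these 2 values differed between scalings.

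The other H3f3a probe, ILMN_3066986, was dim and gave 143, 113 and 144 units in sham, 140.5, 124 and 136 at 4 h, and 102, 101 and 93.7 at 24 h. Its log2 value was -1.11 ± 0.08 at 24 h (limma, adjusted p = 8.16e-07) and -0.35 without background correction, where it was not called. The probes of this gene thus disagreed, and the probe sequences needed to tell which transcripts each reads were not used here. H1f10, the variant H1.X, had 2 probes at -0.60 and -0.54, the first of them called. That call was lost without sham replicate 3 (-0.52) and without 24 h replicate 1 (-0.58).

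At 4 h few histone probes were called. Of the 51 histone probes 4 were called lower and 0 higher, where 2.06% of all tested probes were lower and 1.89% higher. The 4 were the H2A probes H2ac21, H2ac22 and H2ac11 and the variant H2A probe H2aj. The first 3 of them were called in all 5 scalings, and H2aj was lost without background correction. The median was -0.36 over the 11 replication-dependent H2A probes, 0.01 over H2B, 0.01 over H3 and -0.07 over H4, and 0 probes of the last 3 families were called. At an adjusted p under 0.05 without the fold, 10 histone probes were lower and 2 higher at 4 h. Of all 11653 tested probes, 1303 were lower and 1404 higher at that threshold. In 14 of the 51 probes all 4 h arrays were below all sham arrays, against 19.1% of all probes, and in 4 all were above, against 20.9%.

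Between 4 h and 24 h, 12 histone probes were called lower and 3 higher, where 8.3% of all tested probes were lower and 9.83% higher. The fold change here is between treated arrays, which the other comparisons also use, and the sham arrays enter through the normalization and the shared estimate of spread. By family, 4 H3 and 4 H4 probes were lower in this interval and 1 H2A probe (H2ac11) was, along with both H1f10 probes and the H3f3a probe ILMN_3066986. The higher ones were H1f2, H2bc4 and H2ac18. With detection required on all arrays of both groups, 10 were lower and 2 higher. H4c2, 1 of the lower H4 probes, was detected on 2 of the 3 arrays at 24 h. Without background correction 1 was lower and 2 were higher. Leaving out 1 array ended 4 of the lower calls: H4c6 without 4 h replicate 1 (-0.53) or 24 h replicate 2 (-0.43), H4c2 without 4 h replicate 2 (-0.56) or 24 h replicate 2 (-0.56), and the H1f10 probes without 4 h replicate 1 (-0.53), 24 h replicate 1 (-0.58) or 4 h replicate 2 (-0.57). Leaving out 1 array also added H2ac4 (-0.66 without 4 h replicate 1), H4f16 (-0.67 without the same array), H4c3 (-0.60 without 24 h replicate 1), H2ax (-0.61 without 24 h replicate 2) and H3c14 (0.60 without 24 h replicate 1).

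By genomic cluster, the large cluster on chromosome 13 held 33 tested probes, of which 14 were lower and 2 higher at 24 h (median -0.53). The cluster on chromosome 3 held 8, of which 1 was lower and 2 higher (median -0.17), and its values ran from -1.60 (H2ac21) to 0.72 (H2ac18). Over all tested probes 12.1% were lower and 12.8% higher, so the lower share on chromosome 3 was near that of all probes. The difference between clusters was not tested.

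**Figure D4:**
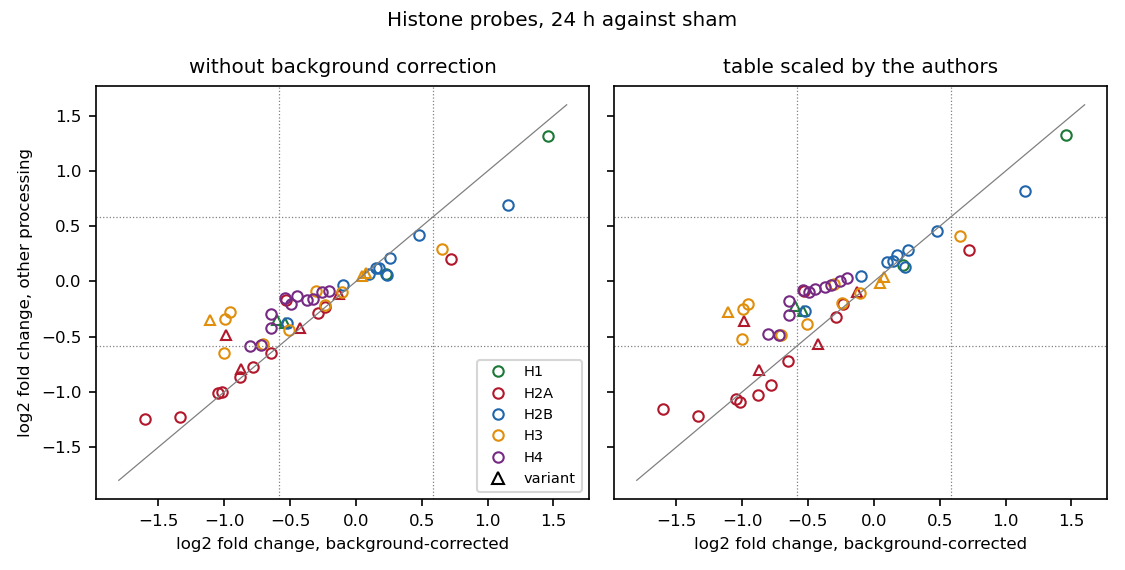
Log2 fold change at 24 h of the 51 tested histone probes, background-corrected (horizontal axis) against uncorrected (left, vertical axis) and against the table scaled by the authors (right); colours are families, triangles are variants, dotted lines mark 1.5-fold and the grey line marks equal values. The replication-dependent H2A points left of the left dotted line, and H2ax, H1f2 and H2bc4, stay past the dotted lines in both panels. The variant H2aj and most H3 and H4 points move towards 0.

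Genes that act on or with histones were set beside them from lists of textbook members. The calls of listed genes were not compared over the other scalings. Of 22 tested genes for histone chaperones and deposition, 8 were called lower and 0 higher at 24 h (median -0.36, 21 of 22 below 0). Over all tested probes 12.1% were lower and 12.8% higher. At 4 h 0 of the 22 were called and 4 passed the adjusted p. Of all 11653 tested probes, 1303 passed it on the low side and 1404 on the high side. The 8 genes lower at 24 h include Cenpa (-0.76 ± 0.06), itself the H3 variant of centromeres, which the symbol rule does not take in. Ruvbl2 (log2 -1.23 ± 0.09) and Ruvbl1 (-0.87 ± 0.08) code for the paired ATPases of complexes that exchange H2A.Z. Ipo4 (-0.94 ± 0.07) codes for an importin that carries H3 and H4 into the nucleus, and Hira (-0.89 ± 0.17) for the chaperone that deposits H3.3 outside replication. The Hira probe was dim, with 185, 140 and 158 units in sham and 123, 127.5 and 109 at 24 h. Asf1b (-0.55 ± 0.08), which hands H3 and H4 to other chaperones, missed the fold. Chaf1a (-0.03 ± 0.08), of the complex that deposits histones at replication forks, and Daxx (0.16 ± 0.07), another H3.3 chaperone, did not pass the adjusted p.

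The list for transcription and end processing of histone messenger RNA had 11 tested genes of 23, with 2 lower and 1 higher at 24 h, near the 12.1% lower and 12.8% higher of all tested probes. The lower ones were Ncbp2 (-0.69 ± 0.12), a cap-binding subunit, and Cstf2 (-0.61 ± 0.08), a cleavage stimulation factor. The Ncbp2 probe was dim, and its raw values overlapped, with 186, 129 and 192 units in sham and 134, 134 and 125 at 24 h. Tut7 (0.63 ± 0.06), whose product adds uridines to histone messenger RNA, was higher. Slbp, the stem-loop binding protein, had a probe that did not pass detection, and Npat was not analysed here. At 4 h 0 genes of this list were called, and 4 passed the adjusted p alone. Of all 11653 tested probes, 1303 passed it on the low side and 1404 on the high side at 4 h.

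S-phase genes had 5 of 21 called lower and 0 higher at 24 h (median -0.28), beside 12.1% and 12.8% of all tested probes. At 4 h 0 were called and 2 passed the adjusted p, which 1303 of 11653 tested probes passed on the low side and 1404 on the high side. At 24 h 7 of the 21 did not pass the adjusted p, nor did 4662 of the 11653 tested probes. Mcm6 (0.50 ± 0.08) passed it on the high side and missed the fold. The S-phase genes with the largest falls were Uhrf1 (-0.75 ± 0.08), which maintains DNA methylation, the thymidylate genes Tyms (-0.72 ± 0.07) and Tk1 (-0.70 ± 0.07), and the replication licensing gene Cdc6 (-0.67 ± 0.09). Endothelial markers moved the other way: 10 of 10 tested were called higher at 24 h (median 1.45), and their summed level over 12 genes was 12720 to 13594 in sham, 11832 to 12375 at 4 h and 29920 to 31282 at 24 h. The part of these shifts in the histone results was not tested. Of 7 myeloid markers, 5 had a probe under their gene symbol. Csf1r and Cd68 did not, and the study lists Cd68 as higher after propranolol. Of the 5, Cd14 was tested and was higher (0.65 ± 0.11), and the other 4 were not detected on all sham arrays. The summed level of the 5 was 122 to 140 in sham and 159 to 168 at 24 h. Of 9 fibroblast and mural markers, Acta2 was lower (-1.001 ± 0.080) and Pdgfra had a value of 0.54 ± 0.11, with a sum of 262 to 269 in sham and 273 to 292 at 24 h. Acta2 was detected on 0 of the 24 h arrays, so it entered the test through the sham and 4 h groups, where it was high.

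The 26 histone probes that did not pass detection were 11 for germ cell histones and 15 for replication-dependent histones. The latter were for H1f1, H1f3, H1f4, H2ac6, H2ac8, H2aw, H2bc6, H2bc8, H2bu1-ps, H2bu2 and H3c7 (3 probes), with second probes for H2bc4 and H2bc18. On at least 1 array 5 of these 15 and 2 of the 11 germ cell probes were detected.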

How the data were processed

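Gene expression in SVR cells was measured on 9 Illumina bead arrays. Per the methods, RNA pooled over 3 biological replicates was amplified, biotin-labelled with the TotalPrep kit and hybridized in triplicate. The deposited intensity, averaged over a probe's beads and left unnormalized, comes with a detection p-value set by negative controls. In another deposited table the authors had scaled each array's intensity by 1 constant to a common mean, and the series' value table is identical to it. The scanner software is not given in the sources used here.

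Background correction and quantile normalization were done with neqc (limma 3.58.1, R 4.3.3, offset 16), with all 9 arrays in 1 linear model, and p-values were adjusted by Benjamini-Hochberg over 11653 tested probes (detection p under 0.05 throughout 1 or more groups of 3). Array number limits the precision. Of 25697 probes, 23978 had 1 gene symbol, 1719 had none and 0 had several. Symbols were set by gene number against a RefSeq table for 23962 probes. By rule, every tested histone probe is named with its 24 h value, and called members with the largest changes and set variants get per-array values; a few more are shown as examples chosen after their values were seen. The members, classes and gene lists were chosen with earlier results of these data known. Germ cell histones were set apart from the variants by annotation, and none of their probes was tested. On simulated data the procedure was checked before use. Alternatives covered background, scaling, detection filter, fold, test, probe choice, replicate block and each array left out. A filter on detection in both groups compared was added after seeing the data. Same-numbered arrays did not deviate together (r from -0.022 to 0.006). Position on the first BeadChip and group cannot be told apart, since groups sit side by side. Motifs were searched with Python 3.11.15, and figures were drawn with matplotlib 3.10.9.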

Additional observations from a re-analysis of the deposited data

Results flagged for a closer look

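For 15 histone probes the effect at 24 h differed from the effect at 4 h, by the test of 24 h against 4 h (limma, adjusted p under 0.05 and 1.5-fold), with the values below in log2 units. Among H3 genes the difference was -0.98 for H3c10, -0.91 for H3c3, -0.69 for H3c1 and -0.65 for H3c4. Among H4 genes it was -0.74 for H4c11, -0.68 for H4c2, -0.67 for H4c9 and -0.61 for H4c6. H2ac11 was the 1 H2A gene that went lower in this way (-0.70). For the variants it was -1.18 for the H3f3a probe ILMN_3066986, -0.62 for the H1f10 probe ILMN_3122845 and -0.60 for the H1f10 probe ILMN_1247646. The effect was higher at 24 h than at 4 h for H2bc4 (1.08), H1f2 (0.98) and H2ac18 (0.78). H2ac18 was detected on 0 of the 4 h arrays and H3c10 on 1 of the 24 h arrays. Each thus passed the detection filter only through groups where it was high. H4c2 was detected on 2 of the 24 h arrays. With detection required on all arrays of both times, 12 probes were called. Without background correction 3 of the 51 probes passed this test, 2 of them higher. Groups of 3 arrays are too small for a check of single outlying arrays.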

How the results depend on the processing

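The main counts of called histone probes were 23 at 24 h, 4 at 4 h and 15 for 24 h against 4 h. No alternative run turned a called value around. At 24 h the count was 12 without background correction, 10 in the table scaled by the authors, 15 with the array 75th percentile, 7 at 2-fold and 37 with the adjusted p alone. At 4 h it was 1 at 2-fold and 12 with the adjusted p alone. For 24 h against 4 h it was 3 without background correction, 3 in the table scaled by the authors, 8 with the 75th percentile, 2 at 2-fold and 37 with the adjusted p alone. Counts over all 11653 tested probes moved too. At 24 h 1407 were lower and 1493 higher, against 601 and 738 without background correction. They were 508 and 892 in the table scaled by the authors and 986 and 659 with the 75th percentile. With the adjusted p alone 3694 were lower and 3297 higher at 24 h, 1303 and 1404 at 4 h, and 3404 and 2882 between the times. The median log2 change of replication-dependent histones at 24 h was -0.41, and it was -0.19 without background correction, -0.10 in the table scaled by the authors, -0.26 with the 75th percentile and -0.23 with no detection filter. For 24 h against 4 h it was -0.31, and -0.17, -0.12, -0.37 (median centring) and -0.16 (no detection filter). The variant median at 24 h was -0.54, and -0.35, -0.27, -0.49 (median centring), -0.44 (75th percentile) and -0.43 (brightest probe of a gene). The variant median at 4 h was 0.002, -0.086 with the brightest probe, and -0.045 to 0.076 with 1 array left out. For 24 h against 4 h it was -0.34, and -0.49, -0.47 (75th percentile), -0.30 (brightest probe) and -0.39 to -0.30 with 1 array left out. The cause of these shifts was not tested, apart from the thresholds and filters, which by construction admit other probes. Over all tested probes the share of higher among called probes at 24 h was 51.5%, against 63.7% in the table scaled by the authors and 40.1% with the 75th percentile. With the replicate number as a block the counts were 23, 4 and 15 and the medians -0.41 and -0.54 at 24 h, and the numbers do not pair the arrays. Single probes were followed over the alternatives other than the changed thresholds, the filter on both groups and the brightest probe of a gene. At least 1 of those followed ended the call of 14 probes at 24 h, 1 at 4 h and 13 between the times. At least 1 of them added a call for 3, 1 and 9 probes. With detection required on all arrays of both groups compared, chosen after seeing the data, the counts were 21, 4 and 12.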
